A study of Homo sapiens with 23 samples.

Results

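The insulin-like growth factor (IGF) system was followed through 10 genes out of the 60564 listed in each table. They were the ligand IGF2, the non-coding RNA H19, the receptors IGF1R, IGF2R and INSR, and the binding proteins IGFBP1, IGFBP2, IGFBP3, IGFBP4 and IGFBP6. The genes were chosen by symbol, and each symbol matched 1 row in all 23 libraries. Caco-2 cells, a gut line derived from a colorectal tumour, gave 11 of the libraries and HepG2 cells, a liver tumour line, gave 12.

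Both lines were grown in the iGLC platform, a gut and liver chip in which the cell types share circulating medium only when co-cultured. Each line was either mono-cultured or co-cultured with the other, and was either treated for 1 day with 1 mM free fatty acids (FFAs, palmitic and oleic acid) or left untreated as control. This gave 4 groups per line with 3 libraries each, except co-cultured control Caco-2 cells with 2. The labels describe medium with low serum during the treatment, whereas the methods of the study describe starvation and serum-free medium with albumin. Both lines are single tumour lines, and the labels do not say that libraries of a group came from separate cultures. The methods of the study state that the sequencing covered more than a single independent experiment, without saying which libraries belong to which, so p-values measure only the spread between these libraries, which may be technical in part. Values are TPM, the number of transcripts of a gene per 1000000 transcripts of the library, which are scaled for transcript length and can be compared between genes.

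IGF2 is a secreted peptide that signals through IGF1R and the insulin receptor INSR, both receptor tyrosine kinases. IGF2R, which also carries mannose-6-phosphate-tagged enzymes, takes IGF2 up for degradation and does not signal as a kinase. The IGFBPs bind IGFs outside the cell and set how much ligand reaches the receptors. Fetal liver makes much IGF2, adult liver makes IGF1 and is the main source of circulating IGFBP1, and IGFBP1 transcription in liver is repressed by insulin and raised by fasting and cell stress. H19 lies beside IGF2 in an imprinted region in which the maternal copy normally makes H19 and the paternal copy IGF2.

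The IGF2 gene spans chr11:2129112-2158391 on the minus strand in GENCODE v44 (GRCh38), and the long non-coding RNA gene H19 spans chr11:1995166-2004552, 124.6 kb away. IGFBP1 (chr7:45888360-45893660) and IGFBP3 (chr7:45912245-45921874) lie 18.6 kb apart and end towards each other. The other genes lie on separate chromosomes, with IGFBP2 at chr2:216632828-216664436, IGFBP4 at chr17:40443450-40457725 and IGFBP6 at chr12:53097436-53102345. The receptors lie at chr15:98648539-98964530 (IGF1R), chr6:159969082-160113507 (IGF2R) and chr19:7112255-7294414 (INSR). The Ensembl identifiers in the tables are ENSG00000167244 for IGF2, ENSG00000130600 for H19, ENSG00000140443 for IGF1R, ENSG00000197081 for IGF2R and ENSG00000171105 for INSR. Those of the binding proteins are ENSG00000146678 for IGFBP1, ENSG00000115457 for IGFBP2, ENSG00000146674 for IGFBP3, ENSG00000141753 for IGFBP4 and ENSG00000167779 for IGFBP6.

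RefSeq promoter windows (GRCh38.p14, 250 bases before to 50 bases after the start) were found for 8 of the 10 genes, and IGF2 and IGFBP1 were not among them. The 4 windows shown belong to the binding proteins that were higher in Caco-2 cells (IGFBP6, IGFBP4), to IGFBP3, which was higher in HepG2 cells, and to IGF2R, whose window holds a repeated motif. The motifs searched on both strands were TATANA, which includes TATA boxes, CACGTG, an E-box, and GGGCGG, a GC box. Capitals mark GGGCGG in IGFBP6 (chr12:53097417-53097716, plus strand), TATANA in IGFBP4 (chr17:40443200-40443499, plus strand) and IGFBP3 (chr7:45921223-45921522, minus strand), and CACGTG in IGF2R (chr6:159968832-159969131, plus strand).
IGFBP6: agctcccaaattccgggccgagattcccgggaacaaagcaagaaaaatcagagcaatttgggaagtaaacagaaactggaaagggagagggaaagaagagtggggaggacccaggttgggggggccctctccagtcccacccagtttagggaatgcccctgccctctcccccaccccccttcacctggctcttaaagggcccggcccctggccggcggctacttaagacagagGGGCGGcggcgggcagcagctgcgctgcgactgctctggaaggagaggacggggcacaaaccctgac
IGFBP4: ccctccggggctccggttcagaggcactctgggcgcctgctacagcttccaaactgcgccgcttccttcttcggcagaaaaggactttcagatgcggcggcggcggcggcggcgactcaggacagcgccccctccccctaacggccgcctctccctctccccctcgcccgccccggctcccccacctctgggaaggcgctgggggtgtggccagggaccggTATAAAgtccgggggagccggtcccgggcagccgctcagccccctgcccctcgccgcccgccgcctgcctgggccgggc
IGFBP3: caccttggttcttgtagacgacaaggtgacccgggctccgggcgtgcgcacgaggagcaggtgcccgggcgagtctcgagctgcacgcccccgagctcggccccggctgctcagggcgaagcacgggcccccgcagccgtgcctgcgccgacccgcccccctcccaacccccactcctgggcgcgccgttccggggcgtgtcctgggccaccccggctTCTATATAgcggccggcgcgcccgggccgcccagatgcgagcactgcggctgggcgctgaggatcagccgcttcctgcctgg
IGF2R: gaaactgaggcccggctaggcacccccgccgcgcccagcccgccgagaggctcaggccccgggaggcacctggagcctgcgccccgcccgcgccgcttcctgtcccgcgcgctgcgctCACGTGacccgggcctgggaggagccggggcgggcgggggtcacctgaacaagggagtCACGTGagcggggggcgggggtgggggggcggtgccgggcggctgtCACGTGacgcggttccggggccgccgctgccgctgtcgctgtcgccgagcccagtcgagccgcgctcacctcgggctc
The IGF2R window held 3 copies of CACGTG, which reads the same on both strands. Of all 35116 windows in the table, 7.26% held at least 1 copy and 0.0940% held 3 or more. TATANA occurred in the windows of IGFBP4 (1 match) and IGFBP3 (2 overlapping positions, 1 of which matches on both strands) and in 19% of all windows, and in no window found for the other members. GGGCGG occurred in 45.0% of all windows and in windows of all members found but H19. These matches describe the sequence only.

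The labelled lines were checked against markers. Summed TPM of 8 gut markers was 857 to 1141 in Caco-2 libraries and 157 to 247 in HepG2 libraries, with CDX2 (median 82.3 TPM) and CDH17 (median 400.0 TPM) high in Caco-2 cells but CDX1 listed at 0 in most of them. The 8 liver markers summed to 51479 to 80111 TPM in HepG2 and 5019 to 7008 TPM in Caco-2 libraries, with ALB, the albumin gene, at a median of 29558 and 437 TPM. VTN alone of these had a higher median in Caco-2 (1339 TPM) than in HepG2 (320 TPM), and APOA2 (2070 TPM) was the highest of them in Caco-2. The extraction text of the labels names myoblasts, but the 8 muscle markers summed to at most 0.790 TPM in Caco-2 and 3.65 TPM in HepG2 libraries, with MYOD1 and MYMK listed at 0 throughout. Leukocyte markers summed to 61.2 to 86.3 TPM in Caco-2 and 701 to 1183 TPM in HepG2, mostly LYZ (median 823 TPM in HepG2), with PTPRC at most 0.090 TPM. Fibroblast markers summed to 43.7 to 82.9 TPM in Caco-2, led by COL1A1, and to 97.0 to 190.4 TPM in HepG2, led by ACTA2, and endothelial markers to at most 8.53 TPM, led by PECAM1 in Caco-2. The part of other cell types in the values was not tested. TPM keep no read counts, so the depth is unknown. Between 19259 and 23689 genes were above 0 TPM per library, and in HepG2 the 4 libraries numbered 3 had more of them (21588 to 22416) than the other 8 (19259 to 20873).

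In Caco-2 cells IGF2 was the highest of the 10 genes (median 295 TPM, 182 to 378 over 11 libraries), followed without overlap by IGFBP6 (median 124 TPM, 96.5 to 161). IGF2R (61.1 TPM) and IGFBP4 (55.2 TPM) came next with overlapping ranges, and then IGF1R (11.9 TPM), INSR (11.5 TPM) and IGFBP2 (8.85 TPM), each overlapping its neighbour. IGFBP1 (0.570 TPM) and IGFBP3 (0.180 TPM) were near the bottom. These values are medians over the 11 libraries.

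In HepG2 cells IGFBP1 was the highest of the 10 genes by median (739 TPM, 103 to 1280.4 over 12 libraries), although its range covered that of IGF2 (median 167 TPM, 135 to 268). IGF2R followed below IGF2 without overlap (median 72.9 TPM). IGFBP2 (33.1 TPM), INSR (22.2 TPM), IGFBP4 (19.6 TPM), IGF1R (13.1 TPM) and IGFBP6 (10.3 TPM) formed a run of overlapping ranges below it. IGFBP3 (1.42 TPM) stood below all of these without overlap, and H19 was lowest in both lines.

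**Figure D1:**
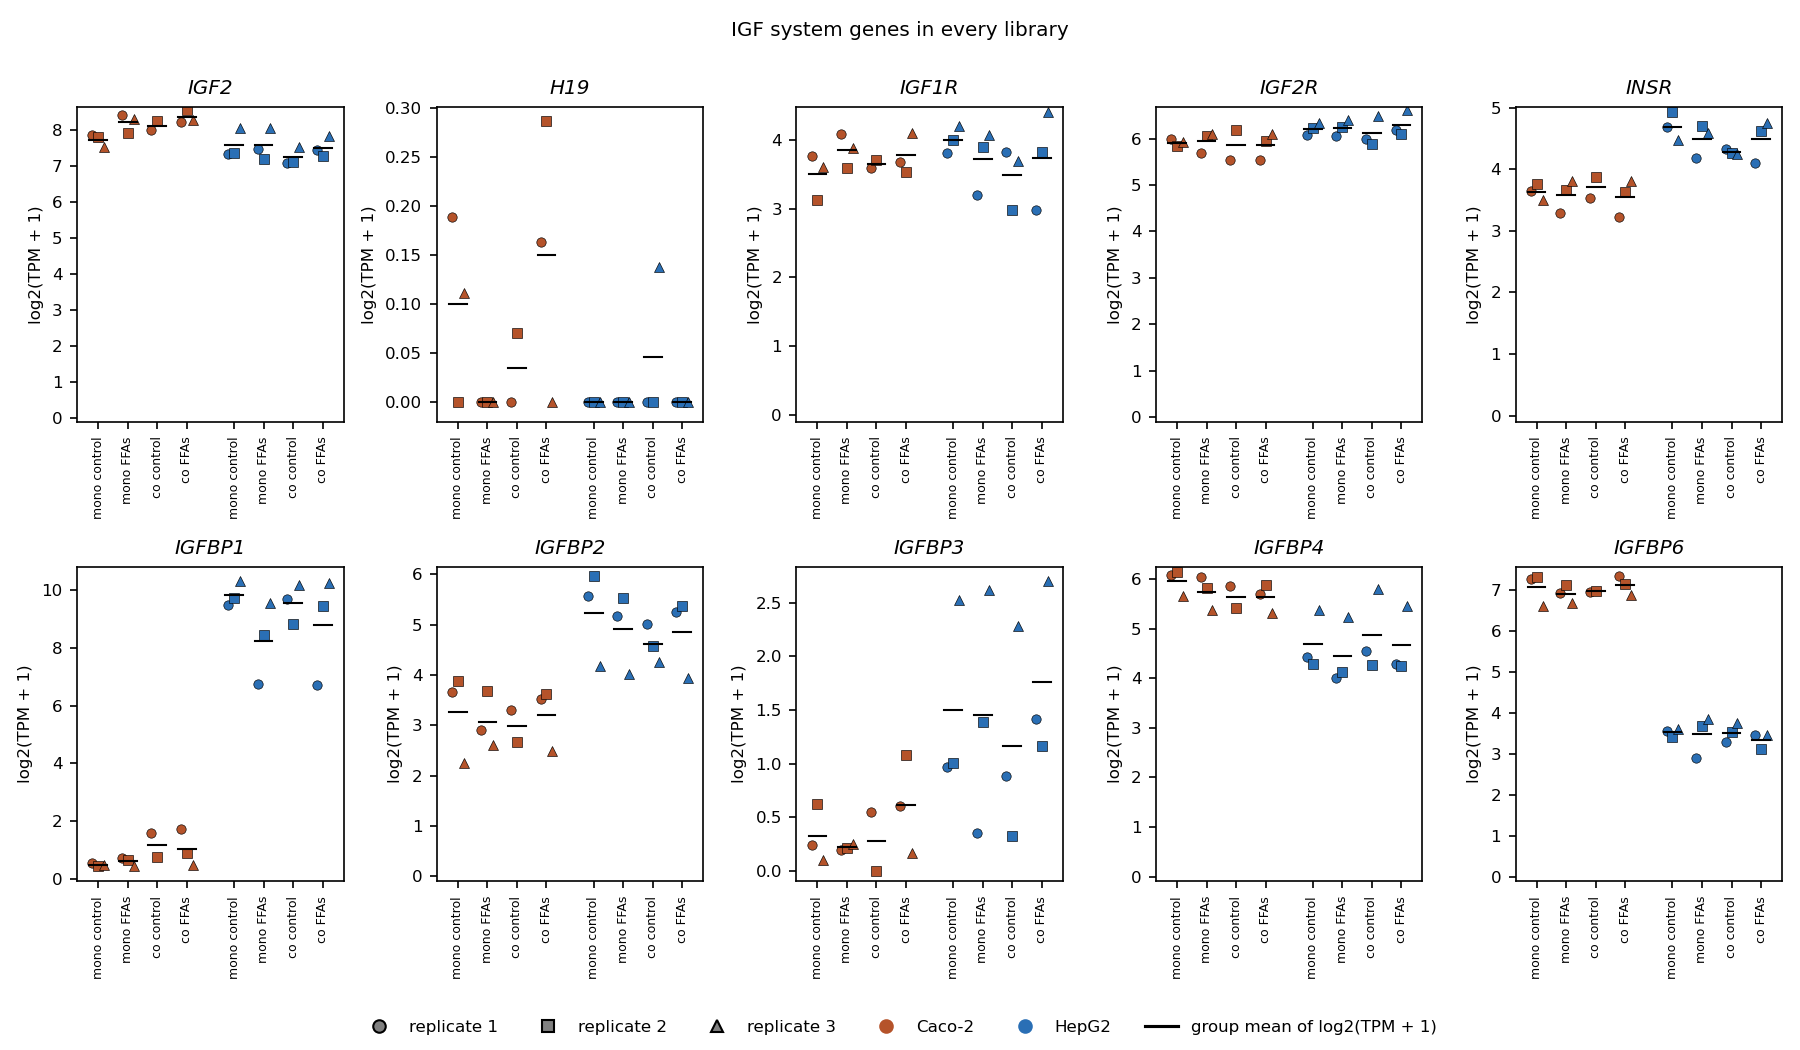
TPM of the 10 genes in each of the 23 libraries on a log2(TPM + 1) scale, by line, culture and treatment, with symbols for the replicate number and bars at the group mean of the log2 values. IGFBP1 (0.35 to 2.29 TPM in Caco-2, 103 to 1280.4 TPM in HepG2) and IGFBP6 (96.5 to 161 and 6.47 to 13.5 TPM) separated the lines, and H19 stayed at or below 0.22 TPM.

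The first question was how far the lines themselves differed, since each treatment effect is read within a line. HepG2 was compared with Caco-2 in 1 limma fit on log2(TPM + 1), averaged over the 4 groups, with Benjamini-Hochberg adjustment over 16495 genes. A gene was tested where at least 1 group averaged 1 TPM or more, which H19 did not reach in any group and IGFBP3 reached only in HepG2. Of the 9 members tested, 8 were called at an adjusted p under 0.05, beside 79.0% of all genes tested. HepG2 was higher for 5 of the 9 and Caco-2 for 3, beside 29.2% and 49.8% of all genes. In mono-cultured control cells alone 5 of 9 were called, beside 62.4%. The libraries of the lines did not overlap for INSR, IGFBP1 and IGFBP2, all higher in HepG2 (beside 14.1% of genes), or for IGFBP6, higher in Caco-2 (beside 28.6%), which makes 4 of 9 beside 42.7%. The median difference of the 9 members was 0.32 and that of all genes was −0.24, both as HepG2 minus Caco-2 on the log2 scale.

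IGFBP1 showed the widest gap. Its mean was 711 ± 400.2 TPM (SD, n = 12) in HepG2 and 0.821 ± 0.682 TPM (SD, n = 11) in Caco-2, a log2 difference of 8.30 ± 0.36 (SE, limma, adjusted p = 3.0e-14). IGFBP2, a binding protein abundant in fetal tissue and many tumours, was 32.0 ± 14.9 TPM in HepG2 and 8.48 ± 3.53 TPM in Caco-2, with a log2 difference of 1.77 ± 0.27 (adjusted p = 6.87e-06 by limma). No Caco-2 library reached the lowest HepG2 library for either gene.

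IGFBP3, the main IGF carrier in blood, was low in both lines. It ranged from 0.25 to 5.50 TPM in HepG2 and from 0 to 1.11 TPM in Caco-2, and the ranges overlapped. The log2 difference was 1.11 ± 0.28 (SE, limma, adjusted p = 0.00147), and 2.34 with a pseudocount of 0.1. IGFBP3 entered this test only through the HepG2 groups, since every Caco-2 group averaged under 1 TPM, so the call is not independent of the filter. In mono-cultured control cells alone the difference was 1.18 ± 0.55 and did not pass (adjusted p = 0.0709 by limma).

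IGFBP6, which prefers IGF2 over IGF1, was the main binding protein transcript of Caco-2 cells. It was 129.9 ± 21.7 TPM in Caco-2 (SD, n = 11) and 10.3 ± 1.99 TPM in HepG2 (SD, n = 12), and every Caco-2 library lay above every HepG2 library. The log2 difference was −3.54 ± 0.11 (SE, limma, adjusted p = 2.52e-16). IGFBP4, an inhibitory binding protein that proteases can remove, was also higher in Caco-2 (54.1 ± 10.7 against 26.9 ± 13.3 TPM), with a log2 difference of −1.07 ± 0.21 (adjusted p = 0.000110 by limma) and overlapping ranges. The IGFBP4 call in mono-cultured control cells (−1.26 ± 0.41, adjusted p = 0.0114 by limma) was lost without HepG2 mono-cultured control replicate 2 (−1.05, adjusted p = 0.0555).

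Among the receptors, INSR was 21.8 ± 4.12 TPM in HepG2 and 11.4 ± 1.71 TPM in Caco-2, without overlap. Its log2 difference was 0.87 ± 0.10 (SE, limma, adjusted p = 1.39e-07). IGF2R was 74.2 ± 11.5 TPM in HepG2 and 59.3 ± 8.91 TPM in Caco-2, with a smaller difference of 0.32 ± 0.10 (adjusted p = 0.00605 by limma) and overlapping ranges. IGF1R did not pass in this fit, with 13.0 ± 4.10 TPM in HepG2, 12.2 ± 2.42 TPM in Caco-2 and a log2 difference of 0.04 ± 0.16 (adjusted p = 0.805 by limma). INSR to IGF1R, as a ratio of TPM within a library, had a median of 1.79 in HepG2 (1.21 to 2.64) and 0.952 in Caco-2 (0.552 to 1.62).

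**Figure D2:**
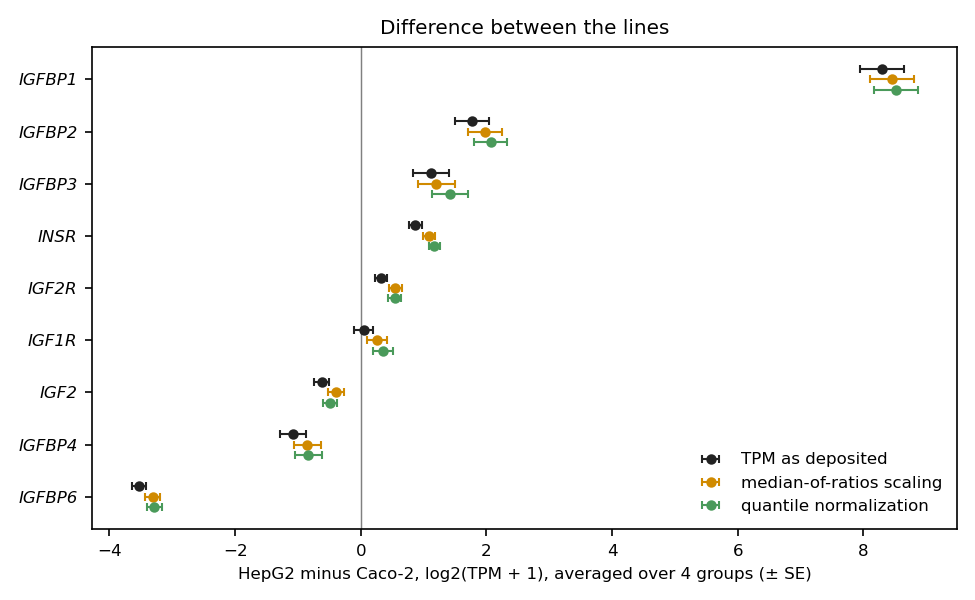
Difference between HepG2 and Caco-2 cells in log2(TPM + 1), averaged over the 4 groups, for the 9 members tested, with standard errors. Points are the deposited TPM and 2 rescalings, both of which moved every member but IGFBP6, IGFBP4 and IGF2 further to the HepG2 side and those 3 nearer to 0.

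Rescaling the libraries mattered for the smaller differences. Median-of-ratios scaling moved the median difference of all genes by 0.19 and quantile normalization by 0.26 on the log2 scale, both towards HepG2. The share of all calls that were higher in HepG2 rose from 36.9% to 47.5% and 50.8%. All 8 called members kept their direction and their call under both. IGF1R became 0.36 ± 0.16 under quantile normalization (adjusted p = 0.0464 by limma).

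IGF2 as deposited was higher in Caco-2 (279 ± 57.8 TPM, n = 11) than in HepG2 (182 ± 45.9 TPM, n = 12), with overlapping ranges and a log2 difference of −0.62 ± 0.11 (SE, limma, adjusted p = 5.53e-05). This value has a limit that the other members do not share. The non-coding gene AC132217.1 (ENSG00000240801, chr11:2129121-2129964) lies on the same strand inside the last exon of IGF2, past its coding part. All 373 bases of its 2 exons are also bases of the canonical IGF2 transcript, which has 5580 bases, so the estimation of TPM had to divide reads there between both genes.

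AC132217.1 had more TPM than IGF2. Its range was 214 to 447 TPM in Caco-2 (median 362) and 386 to 893 TPM in HepG2 (median 630.4). The ratio of AC132217.1 to IGF2 was 0.957 to 1.42 in Caco-2 and 2.87 to 4.02 in HepG2 libraries, without overlap. AC132217.1 was itself higher in HepG2, with a log2 difference of 0.88 ± 0.12 (SE, limma, adjusted p = 1.42e-06).

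Counting these reads for IGF2 by transcript length raised IGF2 by 6.40% to 9.52% in Caco-2 and by 19.2% to 26.9% in HepG2. The difference between lines was then −0.44 ± 0.11 (SE, limma, adjusted p = 0.00163). A plain sum of both TPM turned the direction, to 0.38 ± 0.11 (adjusted p = 0.00563 by limma). In mono-cultured control cells IGF2 as deposited did not pass (−0.15), and it was 0.04 with the length weighting, 0.04 with median-of-ratios scaling and 0.02 with quantile normalization. Which of the genes the reads came from was not tested. The read-through gene INS-IGF2 was listed at 0 in all 23 libraries, and of the 15 listed genes that overlap a member, AC132217.1 was the only one above 1.91 TPM.

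**Figure D3:**
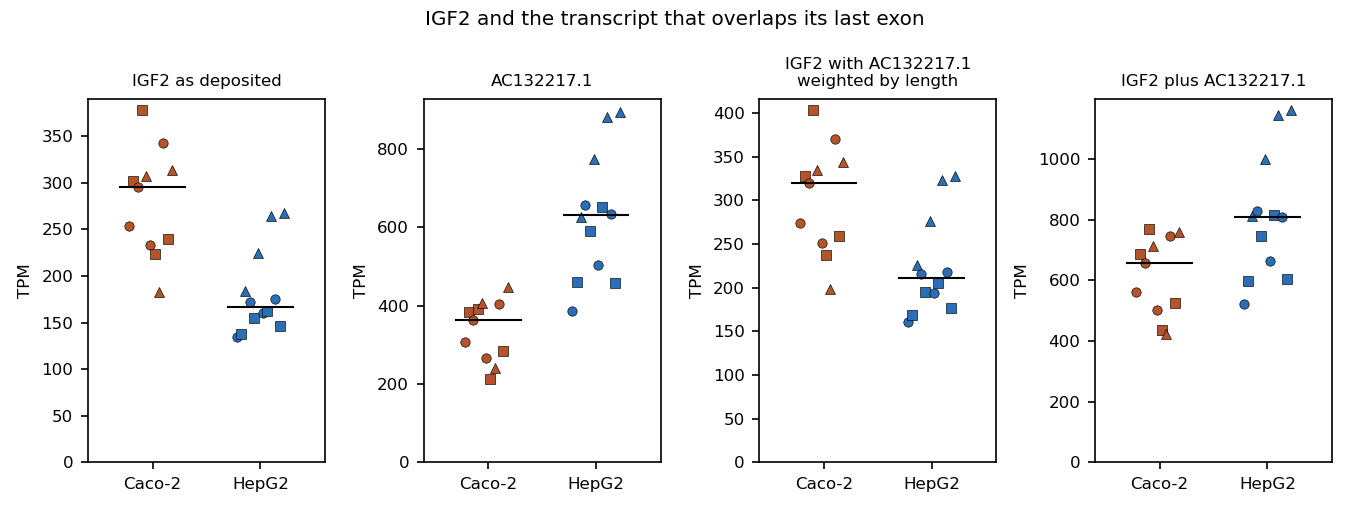
TPM per library of IGF2 as deposited, of AC132217.1, of IGF2 with AC132217.1 weighted by length, and of their plain sum, with symbols for the replicate number as circles (1), squares (2) and triangles (3) and bars at the median. IGF2 was higher in Caco-2 (median 295 against 167 TPM), whereas the plain sum was higher in HepG2 (median 810.0 against 657 TPM).

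H19 was near 0 beside this IGF2 level. It was listed at 0 in 17 of 23 libraries, 11 of them HepG2, and reached at most 0.22 TPM in Caco-2 and 0.10 TPM in HepG2. The libraries above 0 were 2 mono-cultured control, 1 co-cultured control and 2 co-cultured FFAs-treated Caco-2 libraries and 1 co-cultured control HepG2 library. No fold was computed. MIR675, the microRNA gene within H19, and MIR483, the microRNA gene within IGF2, were listed at 0 in all libraries, which a library of polyadenylated RNA need not capture.

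The make-up of the binding proteins is described per library as shares of the summed TPM of the 5 IGFBP members. IGFBP1 made up a median of 90.8% of this sum in HepG2 (60.5% to 94.5%). IGFBP6 made up a median of 66.0% in Caco-2 (62.3% to 72.4%), with IGFBP4 next at 27.6% (22.7% to 33.9%). The sum itself was 148 to 242 TPM in Caco-2 and 164 to 1354 TPM in HepG2. Set against IGF2 as deposited, the sum was 0.473 to 1.09 times IGF2 in Caco-2 and 0.933 to 6.77 times in HepG2.

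**Figure D4:**
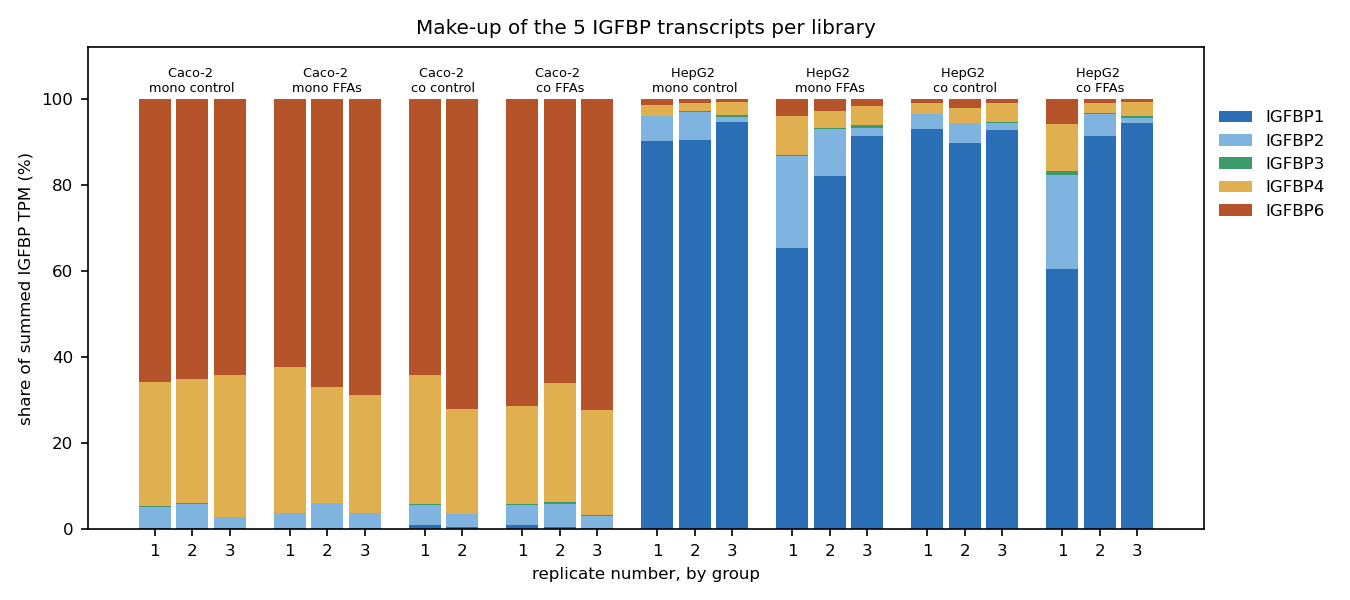
Share of each IGFBP in the summed TPM of IGFBP1, IGFBP2, IGFBP3, IGFBP4 and IGFBP6, 1 bar per library. IGFBP1 fills 60.5% to 94.5% of the HepG2 bars and at most 1.05% of the Caco-2 bars, and the lowest HepG2 shares belong to both FFAs-treated libraries numbered 1 (65.3% mono-cultured, 60.5% co-cultured).

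The second question was whether FFAs or co-culture changed these genes within a line. No member was called in any of the 8 comparisons within Caco-2 (8 members tested) or the 8 within HepG2 (9 members tested). By limma, 0.0% of 15081 genes were called for FFAs in mono-cultured Caco-2 cells (393 at an unadjusted p under 0.05) and 0.0199% for FFAs in co-culture (427). For co-culture in Caco-2, 0.0199% were called in control (819) and 0.0% with FFAs (919), and the test of any difference among the 4 groups called 0.0133%. In HepG2, 0.0% of 14255 genes were called for FFAs in mono-culture (319 at an unadjusted p under 0.05) and in co-culture (263).

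Co-culture in HepG2 called 0.0% in control (1073 at an unadjusted p under 0.05) and 0.0% with FFAs (803), which became 6 genes and 1 gene with the replicate number as a block. Averaged over both treatments it called 0.0561%, or 8 genes, and 492 with that block. No member was among the genes called with the block. The FFAs effect differed between lines for 0.0182% of 16495 genes and the co-culture effect for 0.533%, without a member. With the block the second count rose from 88 to 835 genes and included IGFBP4 (0.48, HepG2 minus Caco-2, adjusted p = 0.0381 by limma). Within Caco-2 the blocked co-culture value of IGFBP4 was −0.48 ± 0.14 in control (limma, unadjusted p = 0.00554, adjusted p = 0.211). Averaged over both treatments it was −0.29 ± 0.09 (limma, unadjusted p = 0.00886, adjusted p = 0.162).

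Across the 4 single comparisons of each line, members differed by −0.32 to 0.70 on the log2 scale in Caco-2 and by −1.60 to 0.59 in HepG2. Ranking the 4 groups of each line by mean TPM gave 24 pairs of neighbouring groups over 8 genes in Caco-2 and 27 over 9 genes in HepG2. The libraries of both groups did not overlap in 1 Caco-2 pair, for IGF2, and in 0 HepG2 pairs, beside 5.53% and 3.14% of such pairs over all genes tested.

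**Figure D5:**
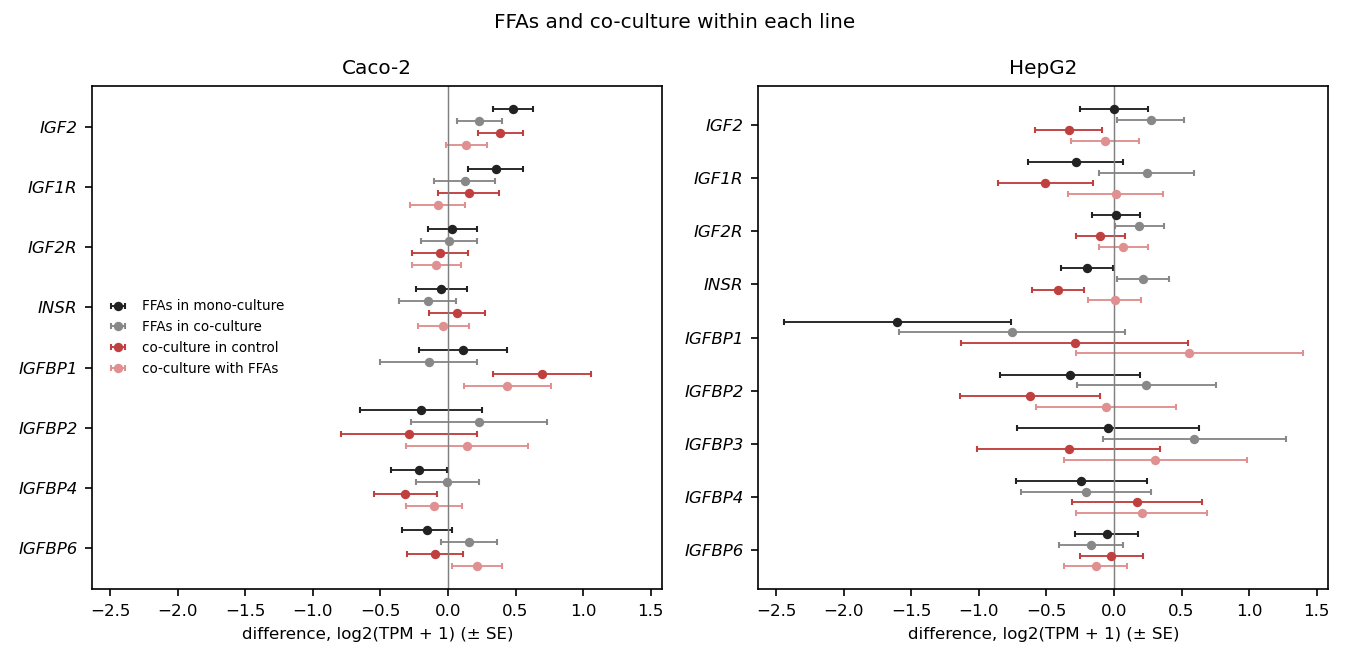
Differences in log2(TPM + 1) with standard errors for FFAs against control and for co-culture against mono-culture, for the 8 members tested in Caco-2 and the 9 tested in HepG2. No point passed the adjusted threshold, and the widest errors belong to IGFBP1 in HepG2 (−1.60 ± 0.84 for FFAs in mono-culture).

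IGF2 in Caco-2 cells came nearest to a treatment difference. Mono-cultured control libraries had 233, 223 and 182 TPM and mono-cultured FFAs-treated libraries had 343, 240.1 and 314 TPM. All 3 treated libraries lay above all 3 controls, as for 5.08% of genes. The log2 difference was 0.48 ± 0.15 (SE, limma, unadjusted p = 0.00791), and the adjusted p was 1.0. AC132217.1, which shares its reads, differed by 0.63 ± 0.16 (adjusted p = 1.0 by limma).

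Co-cultured control Caco-2 libraries had 253 and 302 TPM of IGF2 and co-cultured FFAs-treated libraries had 295, 378 and 307 TPM. These groups overlapped, with a difference of 0.23 for FFAs in co-culture. Co-cultured control libraries lay above the mono-cultured ones (0.38 ± 0.17, adjusted p = 0.867 by limma), as for 15.1% of genes. Averaged over both cultures, the difference with FFAs was 0.36 ± 0.11 (adjusted p = 0.990 by limma), and averaged over both treatments, that with co-culture was 0.26 ± 0.11 (adjusted p = 0.451 by limma).

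The IGF2 values of HepG2 groups overlapped. Mono-cultured libraries had 160.5, 162 and 264 TPM without FFAs and 176, 147 and 268 TPM with FFAs. Co-cultured libraries had 135, 138 and 184 TPM without FFAs and 172, 155 and 225 TPM with FFAs. The third value of each group, from the library numbered 3, was the highest in all 4 groups. Within each number the co-cultured control library was below the mono-cultured one. This difference was −0.34 ± 0.25 (adjusted p = 0.797 by limma), and −0.34 ± 0.09 with the replicate number as a block (unadjusted p = 0.00492, adjusted p = 0.201). Averaged over both treatments the blocked co-culture value was −0.20 ± 0.07 (limma, adjusted p = 0.123), the smallest adjusted p of a member within a line under any setting. In co-culture the FFAs-treated library of each number was 1.27, 1.13 and 1.23 times its control, and the difference of 0.27 had an adjusted p of 1.0 by limma. The co-culture effect on IGF2 differed between lines by −0.46 ± 0.23 (HepG2 minus Caco-2, adjusted p = 0.362 by limma).

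IGFBP1 in HepG2 had the largest standard error of any member on the log2 scale. Mono-cultured control libraries had 722, 856 and 1280.4 TPM and mono-cultured FFAs-treated libraries had 107, 345 and 755 TPM. Within each replicate number the treated library was lower, at 0.148, 0.403 and 0.590 times its control, but the groups overlapped. The log2 difference was −1.60 ± 0.84 (SE, limma, unadjusted p = 0.0805, adjusted p = 1.0). This fit did not use the replicate number, although the numbers were taken to pair these groups. The number took 43.4% of the sum of squares of IGFBP1 in HepG2, beside 28.0% for the groups and 28.6% left over. The error and p-value of this fit therefore hold the spread between numbers as well, and do not use the pairing. With the number as a block IGFBP1 was not called either.

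In co-culture the direction was not shared. Co-cultured control libraries had 822, 455 and 1153 TPM of IGFBP1 and co-cultured FFAs-treated libraries had 103, 701 and 1233 TPM. The ratio of treated to control was 0.125 for number 1, 1.54 for number 2 and 1.07 for number 3. The log2 difference was −0.76 ± 0.84 (adjusted p = 1.0 by limma), and it became 0.30 without the co-cultured FFAs-treated library numbered 1. That library and the mono-cultured FFAs-treated library numbered 1 were the only HepG2 libraries under 345 TPM.

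IGFBP1 in Caco-2 was low, and its highest values were in co-culture. Mono-cultured libraries had 0.46, 0.36 and 0.38 TPM without FFAs and 0.63, 0.57 and 0.35 TPM with FFAs. Co-cultured libraries had 2.02 and 0.70 TPM without FFAs and 2.29, 0.87 and 0.40 TPM with FFAs. Both co-cultured control libraries lay above the mono-cultured controls, as for 15.1% of genes. The difference with co-culture, averaged over both treatments, was 0.57 ± 0.24 (SE, limma, unadjusted p = 0.0390, adjusted p = 0.451). IGFBP1 entered the Caco-2 tests only through the co-cultured groups (means 1.36 and 1.19 TPM against 0.400 and 0.517 TPM), so this value is not independent of the filter.

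HepG2 transcripts were measured in the same co-cultured Caco-2 libraries. The summed TPM of 33 HepG2 markers stood at 0.906% and 0.0903% of their level in mono-cultured control HepG2 cells in the 2 co-cultured control libraries. In the 3 FFAs-treated ones it stood at 2.32%, 0.262% and 0.113%, against 0.108% to 0.199% in the 6 mono-cultured Caco-2 libraries. The same 2 libraries, both numbered 1, were highest for the markers and for IGFBP1. The part of these transcripts in the IGFBP1 values was not tested. In HepG2 the 63 Caco-2 markers stood at 0.190% to 0.613% in co-culture and 0.127% to 0.242% in mono-culture.

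No receptor passed the test within a line. IGF2R group means lay between 57.9 and 61.2 TPM in Caco-2 and between 69.5 and 79.0 TPM in HepG2. INSR in HepG2 was 24.7, 29.5 and 21.3 TPM in mono-cultured control libraries and 19.2, 18.2 and 18.0 TPM in co-cultured control libraries. The co-cultured group lay below without overlap, as for 7.6% of genes, and their difference did not pass (−0.41 ± 0.19, adjusted p = 0.669 by limma). This INSR difference was not called with the replicate number as a block either. IGF1R group means lay between 10.5 and 13.6 TPM in Caco-2 and between 10.6 and 15.2 TPM in HepG2, where single libraries ran from 6.88 to 20.3 TPM.

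For every tested member but INSR, more of the spread in HepG2 went with the replicate number than with the 4 groups, as for 55.3% of all genes. For IGFBP4 the number took 91.5% of the sum of squares of log2(TPM + 1) over the 12 libraries and the 4 groups took 6.16%. For IGFBP3 the number took 84.1%, for IGFBP2 75.9%, for IGF2 74.7% and for IGF2R 69.6%, where the median over all 14255 genes was 30.3% for the number and 23.7% for the groups. The labels do not say what a replicate number marks, and the libraries numbered 3 were also those with more genes above 0 TPM. The part of either in these values was not tested.

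The libraries numbered 3 stood apart for several members. IGFBP4 was 36.9 to 55.1 TPM in the 4 HepG2 libraries numbered 3 and 15.0 to 22.3 TPM in the other 8. IGFBP3 was 3.87 to 5.50 TPM in them and 0.25 to 1.66 TPM in the others, whereas IGFBP2 was lower, at 14.3 to 18.1 TPM against 22.8 to 61.4 TPM. IGF2 and IGF2R were also higher in all of them. In all, 5 of 9 members did not overlap, beside 11.7% of genes.

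In Caco-2 the pattern was shared only in part. IGFBP2 was again lower in the 3 libraries numbered 3 (3.78 to 5.10 TPM) than in the other 8 (5.33 to 13.8 TPM), and IGFBP6 was lower too (96.5 to 116 against 119.6 to 161 TPM). IGFBP4 was 39.0 to 49.7 TPM in them and 42.0 to 69.7 TPM in the others, so the higher level seen in HepG2 was not present. In all, 2 of 8 members did not overlap, beside 3.04% of genes. No within-line call of a member was made without the libraries numbered 3.

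Genes with the most similar pattern were sought for IGF2 and IGFBP1, by Pearson correlation of log2(TPM + 1) after each line's mean was subtracted, over 23 libraries and the 12174 genes averaging 1 TPM or more in each line. AC132217.1 was nearest to IGF2 (r = 0.911), followed by ATRAID (r = 0.877) and BEX3 (r = 0.831). SH3BP2 (r = 0.876), AC018647.2 (r = 0.872) and H1F0 (r = 0.868) were nearest to IGFBP1. The libraries share groups and replicate numbers, so these values are descriptions. No such gene is given for H19, which was at or near 0.

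Related genes of the pathway were taken from 5 lists, and none of their members was called in any comparison within a line. Some of them entered the tests between lines through the groups of a single line. Among them, RLN2, IGFBP7, IRS2, CDKN1C and ASCL2 passed the filter only in Caco-2, and IGFALS, PLG and IGF2-AS only in HepG2. Their part of the counts between lines, below, is therefore not independent of the filter. KCNQ1OT1 of the imprinted list, also counted as higher in HepG2, was near the filter of 1 TPM. It averaged 0.536 TPM in Caco-2 and 1.19 TPM in HepG2. Of 5 relatives of the ligand, RLN2 (relaxin 2) alone was tested, at a mean of 2.58 TPM in Caco-2 and 0.0542 TPM in HepG2. IGF1, the other IGF ligand, reached at most 0.25 TPM and INS was listed at 0.

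Of 7 other IGF-binding and complex proteins, 5 were tested between lines, and 2 were higher in HepG2 and 3 in Caco-2, beside 29.2% and 49.8% of all genes. IGF2BP1, an RNA-binding protein that binds IGF2 mRNA, was highest in both lines, with a mean of 149 TPM in Caco-2 and 80.0 TPM in HepG2 (log2 difference −0.91 ± 0.08, adjusted p = 2.64e-09 by limma). IGFBP7, named after its values were seen, was 15.5 TPM on average in Caco-2 and 0.341 TPM in HepG2. IGFALS, which forms the circulating complex with IGFBP3, averaged 0.317 TPM in Caco-2 and 1.33 TPM in HepG2.

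Of 11 IGFBP proteases and inhibitors, 5 were tested, and 3 were higher in HepG2 and 1 in Caco-2, beside 29.2% and 49.8% of all genes. F2, the prothrombin gene, was highest in both lines (mean 145 TPM in Caco-2, 717 TPM in HepG2). PAPPA and PAPPA2, the pappalysins that cut IGFBPs, averaged at most 0.0545 TPM in either line. STC2, an inhibitor of pappalysin, averaged 88.6 TPM in Caco-2 and 69.7 TPM in HepG2.

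Of 36 receptor relatives and proximal signalling genes, 33 were tested, and 8 were higher in HepG2 and 17 in Caco-2, which is near the 29.2% and 49.8% of all genes. EIF4EBP1, a translation repressor downstream of mTOR, was highest in both lines (mean 307 TPM in Caco-2, 499 TPM in HepG2). The receptor docking proteins were low, with IRS1 at 4.65 and 3.93 TPM and IRS2 at 1.98 and 0.17 TPM in Caco-2 and HepG2. The median difference of this list was −0.20 and that of all genes −0.24.

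Of 19 imprinted or related genes, 16 were tested, and 5 were higher in HepG2 and 9 in Caco-2, again near the 29.2% and 49.8% of all genes. GNAS was highest in Caco-2 (mean 1650 TPM, 799.8 TPM in HepG2) and DLK1, a paternally expressed gene of fetal liver, in HepG2 (mean 886 TPM, 2.77 TPM in Caco-2). The Caco-2 median of DLK1 was 0.670 TPM and its highest Caco-2 library had 19.2 TPM. PEG3, named after its values were seen, averaged 223 TPM in HepG2 and 0.751 TPM in Caco-2 (median 0.18, highest 5.9 TPM). The part of HepG2 transcripts in these Caco-2 values was not tested. CTCF, the insulator protein that binds between H19 and IGF2, did not pass the test (−0.09 ± 0.09, adjusted p = 0.360 by limma). IGF1, INS, IGFALS, PAPPA, PAPPA2, STC2, IRS1, IRS2 and CTCF were also named after their values were seen, for their known roles.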

How the data were processed

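The authors deposited 1 table of TPM per library, made from polyadenylated RNA amplified with SMART-Seq v4. Per the methods of the study and its processing notes, Bowtie2 2.1.0 removed reads on rRNA, tRNA and the mitochondrial genome, STAR 2.7.1a aligned what remained against GRCh38 (Ensembl 98), and RSEM 1.3.0, which divides reads that several genes share, gave the TPM. TPM hold no read counts, so depth is unknown, no counting interval is given, and a gene at 0 is only listed at 0.

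Values were analysed as log2(TPM + 1) with limma 3.58.1 (R 4.3.3, eBayes with trend), for genes whose mean reached 1 TPM in any group. P-values were adjusted by Benjamini-Hochberg over all genes tested, with a threshold of 0.05. Fold changes on this scale understate changes of low genes. Each line was fitted with its 4 groups, and the lines together with all 8. The fit was also run on simulated data with independent noise. These held no spread between replicate numbers, so that run cannot show how the fit handles such spread. Levels, shares and ratios were computed with Python 3.11.15 (pandas 2.3.3, numpy 2.4.6). Markers of a line had at least 50 TPM in each of its mono-cultured control libraries and at most 1 TPM in each of those of the other line. Coordinates come from GENCODE 44 and promoters from RefSeq, both on GRCh38.

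The 10 members, the lists and the tests were chosen with earlier results of these data known. All members were described in every comparison, with fold changes where the unadjusted p was under 0.05 and otherwise as ranges. Of the lists, the gene with the highest mean in each line is named, and others where stated. Replicate numbers come from the labels. Deviations from group means of same-numbered libraries correlated above 0.1 in every pair between mono-cultured control and FFAs-treated HepG2 (0.175 to 0.502), between both FFAs-treated HepG2 groups (0.308 to 0.601) and between both control HepG2 groups (0.109 to 0.463), so the numbers were taken to pair these. Different-numbered HepG2 libraries of different groups correlated by −0.486 to 0.335 (median −0.2265, against 0.3045 for the same number). Some of them thus passed 0.1 as well, such as co-cultured control number 2 with co-cultured FFAs-treated number 1 (0.335). Between the control groups, co-cultured number 1 correlated more with mono-cultured number 2 (0.193) than with mono-cultured number 1 (0.109). The rule of 0.1 therefore does not by itself separate same from different numbers. Deviations within a group also sum to 0, so the correlations of same and different numbers are not independent. The alternatives were another pseudocount, other filters, median-of-ratios and quantile scaling, no trend, the replicate block, only the compared groups, and each library left out. Leaving out the libraries numbered 3, and adding AC132217.1 to IGF2, were chosen after seeing the data.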

Additional observations from a re-analysis of the deposited data

Results flagged for a closer look

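For 2 members a result was picked out because all libraries of 1 line lay on one side of their control mean and all libraries of the other line lay on the opposite side, among 72 checks of 9 members. For co-culture in control, IGF2 was 0.38 higher in Caco-2 and 0.34 lower in HepG2 on the log2 scale, a difference of effects of −0.72 (as deposited, without AC132217.1). IGF1R was 0.15 higher in Caco-2 and 0.51 lower in HepG2, a difference of −0.66. These differences were not tested at this treatment alone. The Caco-2 side rests on 2 co-cultured control libraries. For IGF1R these (11.1 and 12.1 TPM) lay within the range of the mono-cultured controls (7.78 to 12.6 TPM). How often other genes meet this rule was not computed. The co-culture effect averaged over both treatments differed between lines by −0.46 ± 0.23 for IGF2 (adjusted p = 0.362) and by −0.29 ± 0.32 for IGF1R (adjusted p = 0.722), by limma.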

How the results depend on the processing

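No member was called within a line under any of 34 settings and 16 comparisons (2939 values, smallest adjusted p 0.123 by limma). The 8 averaged calls between lines held in every setting that tested the member and used the IGF2 row as deposited. IGFBP3 was not tested with the filter at 5 TPM. Over the fold changes between lines and those within a line given singly in the text, 721 values under the alternatives kept direction and call, 8 changed sign, 11 became calls and 1 lost its call. The limits are few libraries, no read counts, the reads shared with AC132217.1 and replicate numbers of unknown meaning.

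Between lines, IGF2 changed sign with the plain sum (0.38), and in mono-cultured control cells with median-of-ratios scaling (0.041), quantile normalization (0.015), length weighting (0.042) and the plain sum (0.91). IGF1R ranged from −0.040 to 0.14 with 1 library left out, and was below 0 without Caco-2 mono-cultured control replicate 2 or HepG2 co-cultured FFAs-treated replicate 3. IGFBP1 for FFAs in co-cultured HepG2 ranged from −1.49 to 0.30. IGFBP3 in mono-cultured control cells passed with a pseudocount of 0.1 (2.51), quantile normalization (1.38), the replicate block (1.18, adjusted p = 0.000945) and without HepG2 co-cultured control replicate 3 or mono-cultured FFAs-treated replicate 1 or 3. There IGF1R passed with quantile normalization (0.75) and IGF2R with median-of-ratios scaling (0.49) and quantile normalization (0.51), so that quantile normalization gave 8 called members instead of 5. Causes were not tested.

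Counts of all genes called moved more. For Caco-2, no filter gave 7 (FFAs averaged), 11 (FFAs in co-culture), 2 (FFAs in mono-culture), 11 (any group), 7 (co-culture averaged), 11 (co-culture in control), 2 (co-culture with FFAs) and 10 (interaction), and no trend gave 7, 5, 2, 7, 8, 5, 2 and 7 in that order. A pseudocount of 0.1 or a filter at 5 TPM gave 0 for FFAs in co-culture, any group and co-culture in control. Fitting only the compared groups gave 1, 1 and 0 for FFAs in co-culture, FFAs in mono-culture and co-culture in control. Replicates 1 and 2 alone gave 0 for FFAs in co-culture and 1 for FFAs in mono-culture, any group, both co-culture comparisons and the interaction.

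For HepG2, no filter gave 1 for each of FFAs averaged, FFAs in mono-culture, any group, co-culture averaged, co-culture in control and interaction. Co-culture averaged gave 22 with a filter at 5 TPM and 4 with quantile normalization, no trend or replicates 1 and 2. Only the compared groups gave 1 for co-culture in control. Replicates 1 and 2 gave 2 (FFAs averaged), 3 (FFAs in mono-culture), 3 (any group), 3 (co-culture with FFAs) and 2 (interaction), and with the replicate block as well 1, 2, 5, 5 and 1, and 3 for co-culture in control. The FFAs effect between lines gave 9 without a filter and 1 with a filter at 5 TPM.

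With the replicate block, Caco-2 gave 5 (any group), 60 (co-culture averaged) and 5 (co-culture in control), HepG2 gave 15 (any group), 492 (co-culture averaged), 6 (co-culture in control) and 1 (co-culture with FFAs), and the co-culture effect between lines gave 835 genes and 1 member, IGFBP4. Apart from these and IGFBP3, above, it changed no call of a member. Same-numbered libraries correlated by −0.0926 to 0.312 in Caco-2 and by 0.0288 to 0.516 between co-cultured HepG2 groups. Not every pair there passed 0.1, so no pairing was taken from these correlations. The pairing taken for the other HepG2 groups would link the co-cultured groups as well, so whether those are paired is not settled.

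Leaving out 1 library gave, for Caco-2, 0 to 17 (FFAs averaged), 2 to 24 (FFAs in co-culture), 0 to 1 (FFAs in mono-culture), 1 to 16 (any group), 0 to 13 (co-culture averaged), 2 to 24 (co-culture in control), 0 to 2 (co-culture with FFAs) and 0 to 12 (interaction). HepG2 gave 0 to 1 (FFAs in mono-culture, co-culture in control, co-culture with FFAs), 0 to 2 (any group) and 0 to 15 (co-culture averaged). The FFAs effect between lines gave 3 to 19 and the co-culture effect 33 to 246.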
